A study of Homo sapiens with 12 samples.

Results

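The replication-dependent histone genes are described here in 12 poly(A)-selected RNA libraries of human pancreatic ductal adenocarcinoma cells. They were found by name: every gene whose GENCODE 29 name begins HIST1H, HIST2H, HIST3H or HIST4H. The annotation's gene type left out 19 pseudogenes and kept HIST2H3PS2. This gave 71 of the 58735 genes in the table, of which 55 belong to the HIST1 cluster on chromosome 6, 12 to HIST2 and 3 to HIST3 on chromosome 1, and 1 to HIST4 on chromosome 12. By class they hold 6 genes of the linker histone H1 and 17 of H2A, 18 of H2B, 15 of H3 and 15 of H4. Current symbols are used for 66 of them, and the other 5 keep their GENCODE 29 names.

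The study compared KP4 cells given 100 nM trametinib for 48 h with KP4 cells given the solvent DMSO, and MiaPaca2 cells given 100 nM trametinib for 48 h with MiaPaca2 cells given DMSO. Trametinib blocks the kinases MEK1 and MEK2 at an allosteric site. Both lines are established ones, kept in DMEM to which 10% fetal bovine serum was added. Each of the 4 groups held 3 libraries, so n = 3 per group at every value below. Nothing in the labels says that the 3 were separate cultures, and p-values therefore rest on a spread between libraries that may be technical.

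Replication-dependent histone genes supply the core and linker histones that package newly made DNA, and in dividing cells their mRNA rises and falls with S phase. NPAT, a coactivator switched on by cyclin E and CDK2, drives their transcription at histone locus bodies. Their mRNAs are the exception among animal mRNAs in that most end at a short stem-loop instead of a poly(A) tail. The stem-loop binding protein SLBP holds it, the U7 particle with LSM10 and LSM11 positions the cut, and CPSF3 makes it. Some of these genes are also known to give polyadenylated transcripts, and a library made by poly(A) selection captures mainly those. The levels below are therefore levels of RNA that passed the selection, and how much histone mRNA lacked a tail was not measured.

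Total counts ran from 20293688 to 28018129 per library, and 16133 genes were tested, 41 of the 71 among them. Mesenchymal markers summed to 3310 to 6550 CPM (counts scaled to library size with TMM factors) over the 12 libraries and immune markers to 0.949 to 6.89 CPM. Epithelial markers summed to 226 to 234 CPM in KP4 trametinib and 362 to 375 in KP4 DMSO libraries, and to 738 to 755 in MiaPaca2 trametinib and 1830 to 2200 in MiaPaca2 DMSO libraries, while fibroblast markers were at 16.6 to 17.7 against 8.71 to 9.98 CPM and at 244 to 259 against 76.8 to 129 CPM. Of the epithelial genes, KRT8, KRT18, KRT19 and SOX9 averaged 64.0, 127, 4.39 and 27.2 CPM in KP4 trametinib libraries, against 51.9, 183, 3.25 and 126 CPM in KP4 DMSO libraries. In MiaPaca2 they averaged 364, 218, 97.2 and 64.7 CPM with trametinib, against 872, 759, 177 and 189 CPM with DMSO. EPCAM and CDH1, which define epithelium, averaged 0.478 and 4.96 CPM in KP4 trametinib libraries, against 0.353 and 0.472 CPM in KP4 DMSO libraries, and 0.734 and 2.3 CPM in MiaPaca2 trametinib libraries, against 0.196 and 0.141 CPM in MiaPaca2 DMSO libraries. KRT7 was at 0.872 to 2.49 CPM in the 4 groups. The part of these shifts in the results below was not tested. MiaPaca2 DMSO replicate 2 stood apart: a chi-square per degree of freedom against replicates 1 and 3 of its group was 14.5 and 13.3, against 7.70 between those replicates and 2.02 to 2.89 within the other groups. Leaving it out gave 21 members higher and 5 lower in MiaPaca2, against 21 and 7 with all libraries.

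The stem-loop is shown first, since it is the end that most mRNAs of these genes get in place of a poly(A) tail. A search of the GENCODE 29 protein-coding transcripts for the histone stem-loop, 6 paired bases on each side of a 4-base loop, beginning GG with C as base 5 and holding at least 4 T, found it in 127 of 83129 transcripts, or 0.15%, and in transcripts of 31 members. Sites of members described below follow, 5′ to 3′ as DNA, on GRCh38, with the 16 bases of the stem-loop in capitals.
H2BC21 (chr1:149886183-149886208, minus strand): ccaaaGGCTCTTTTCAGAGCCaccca
H2BC26 (chr1:228458533-228458558, plus strand): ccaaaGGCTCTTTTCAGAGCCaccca
H2AC25 (chr1:228457364-228457389, minus strand): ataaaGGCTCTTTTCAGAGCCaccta
H2AC6 (chr6:26124664-26124689, plus strand): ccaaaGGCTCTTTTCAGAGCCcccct
H2BC5 (chr6:26158582-26158607, plus strand): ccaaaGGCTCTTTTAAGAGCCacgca
H2BC4 (chr6:26123467-26123492, minus strand): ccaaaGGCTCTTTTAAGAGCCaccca
H3C10 (chr6:27810511-27810536, plus strand): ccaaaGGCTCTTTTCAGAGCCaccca
H3C6 (chr6:26225591-26225616, plus strand): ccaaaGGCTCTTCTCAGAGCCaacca
H4C8 (chr6:26285126-26285151, minus strand): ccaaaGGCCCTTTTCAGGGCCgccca
H4C9 (chr6:27139649-27139674, plus strand): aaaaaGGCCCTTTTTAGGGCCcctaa
H2AC13 (chr6:27808642-27808667, plus strand): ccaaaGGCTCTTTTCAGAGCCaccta
The stem-loop was written in 5 ways, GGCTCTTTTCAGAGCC in 17 members, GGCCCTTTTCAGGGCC in 5, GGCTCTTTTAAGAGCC in 5, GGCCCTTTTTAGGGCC in 3 and GGCTCTTCTCAGAGCC in H3C6 alone. All 8 H4 genes with a site had the arm GGCCC, and all 23 sites of H2A, H2B and H3 genes had GGCTC.

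Many H2A and H2B genes lie back to back and share the DNA between them as a promoter. The window from 250 bases before to 50 after the start was held by RefSeq (GRCh38.p14) for 61 of the 71 members and was searched on both strands for CCAAT, for the octamer ATTTGCAT and for TATAAA. The first of these stood in 83.61% of member windows and 34.61% of the 35116 RefSeq windows of all genes, the octamer in 42.62% and 1.77%, and TATAAA in 65.57% and 11.53%. By class the octamer stood in 11 of 14 H2A and 14 of 18 H2B windows, in 1 of 10 H3 windows, that of H3C4, whose RefSeq window is the same stretch as that of H2AC7, and in 0 of 6 H1 and 0 of 13 H4 windows. CCAAT stood in every H1, H2A, H2B and H3 window and in 3 of 13 H4 windows. These are matches of letters, not bound sites. The windows of H2BC21, whose partner H2AC20 moved the other way in MiaPaca2, and of H2AC25, which moved with its partner H2BC26, are printed with the motif matches in capitals. A match on the other strand is in capitals as its reverse complement, and no matches overlap.
H2BC21 (chr1:149886633-149886932, minus strand): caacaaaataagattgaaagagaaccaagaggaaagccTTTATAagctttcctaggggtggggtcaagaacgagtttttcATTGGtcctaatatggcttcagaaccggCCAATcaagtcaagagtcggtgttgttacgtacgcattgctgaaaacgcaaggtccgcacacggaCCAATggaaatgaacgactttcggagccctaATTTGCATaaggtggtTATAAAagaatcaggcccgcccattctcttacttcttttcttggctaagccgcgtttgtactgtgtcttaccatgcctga
H2AC25 (chr1:228457824-228458123, minus strand): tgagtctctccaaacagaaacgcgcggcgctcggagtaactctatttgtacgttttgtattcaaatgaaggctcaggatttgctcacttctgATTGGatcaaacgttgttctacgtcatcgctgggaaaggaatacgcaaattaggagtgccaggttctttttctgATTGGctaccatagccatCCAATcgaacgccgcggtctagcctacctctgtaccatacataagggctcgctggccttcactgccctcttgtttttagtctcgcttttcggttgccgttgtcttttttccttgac
The H2BC21 window held 3 CCAAT matches, 1 octamer and 2 TATAAA matches, and the H2AC25 window held 3 CCAAT matches and neither of the other motifs.

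In both lines the summed level of the histone genes was higher with trametinib, and the difference was larger in MiaPaca2. The 71 genes summed to 349, 341 and 345 CPM in KP4 trametinib libraries, against 275, 277 and 293 CPM in KP4 DMSO libraries. In MiaPaca2 they summed to 314, 318 and 334 CPM with trametinib and 102, 129 and 115 CPM with DMSO. The groups did not overlap in either line, and the log2 ratio of the sums was 0.29 in KP4 and 1.48 in MiaPaca2. With trametinib the lines thus stood close to each other, at 345 ± 3.63 CPM in KP4 and 322 ± 10.7 CPM in MiaPaca2, while with DMSO they stood at 282 ± 10.1 and 116 ± 13.6 CPM (SD). Sums over these members carry no test. In bulk libraries, more or fewer cells that carry an RNA and more or less of it per cell cannot be told apart.

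**Figure D1:**
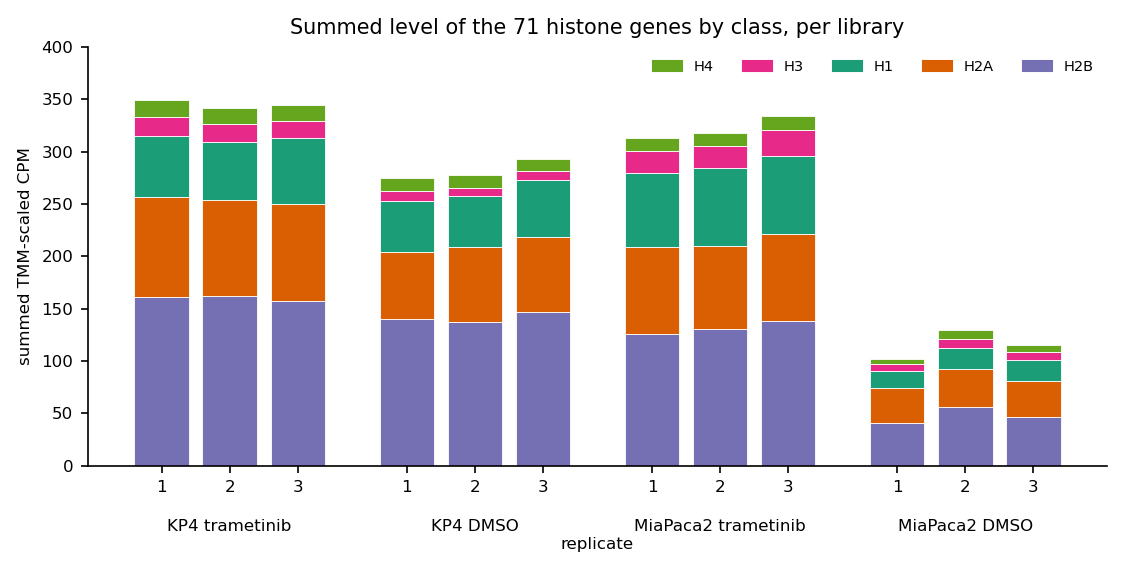
Summed TMM-scaled CPM of the 71 histone genes in each of the 12 libraries, stacked by histone class, with the 3 replicates of each group side by side. The MiaPaca2 DMSO libraries reach 102 to 129 CPM, and the MiaPaca2 trametinib libraries 314 to 334 CPM.

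A few genes made up most of these sums. H1-2 gave 18.3% of all counts of the 71 genes, H2BC12 gave 16.6%, and the 5 highest together 65.9%. In MiaPaca2 the sum was 206 CPM higher with trametinib, and H1-2 accounted for 55.7 CPM of that, H2BC21 for 27.8, H2BC5 for 27.7 and H2AC6 for 25.1. In KP4 the sum was 63.3 CPM higher, with 13.4 CPM from H2BC5 and 11.9 CPM from H2BC21, while H2BC12 was 13.6 CPM lower. H2B made up 46.3% ± 0.890 of the sum in KP4 trametinib and 50.1% ± 0.784 in KP4 DMSO libraries, H3 5.01% ± 0.389 and 3.14% ± 0.394 (SD). In MiaPaca2 H1 made up 22.7% ± 0.467 with trametinib and 16.6% ± 0.909 with DMSO, and H2A 25.4% ± 0.936 and 29.8% ± 2.17.

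Of the 41 members tested, edgeR called 18 higher and 2 lower in KP4, where 48.1% of all 16133 genes tested were called, 23.9% higher and 24.1% lower. In MiaPaca2 it called 21 higher and 7 lower, where 64% of all genes were called, 34.4% higher and 29.7% lower. The median log2 fold change of the tested members was 0.40 in KP4, against 0.00 over all genes tested, and 0.73 in MiaPaca2, against 0.05. Among the 11 members at a mean of 5 CPM or more, 9 were higher and 2 lower in KP4, and 10 were higher in MiaPaca2, with H2BC11 not called. Among the 13 at 1 to 5 CPM, 6 were higher in KP4, and 10 higher and 1 lower in MiaPaca2. Of the 47 under 1 CPM, 17 were tested, and in MiaPaca2 1 of these was higher and 6 lower. The filter asked for 0.402 CPM in at least 3 libraries, and 7 of the 17 would not have passed it had a certain group been left out. H2AC14, H3C11 and H3C12 needed MiaPaca2 DMSO, H2AC15 MiaPaca2 trametinib, H1-3 both KP4 trametinib and MiaPaca2 DMSO, H4C3 both MiaPaca2 groups and H3C1 both KP4 groups. Such a gene had to be higher in the group that carried it, so such a difference is given as values with no test. Without the 7, the counts were 17 higher and 2 lower in KP4 and 20 higher and 4 lower in MiaPaca2. The median log2 fold changes were then 0.44 in KP4 and 0.97 in MiaPaca2.

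**Figure D2:**
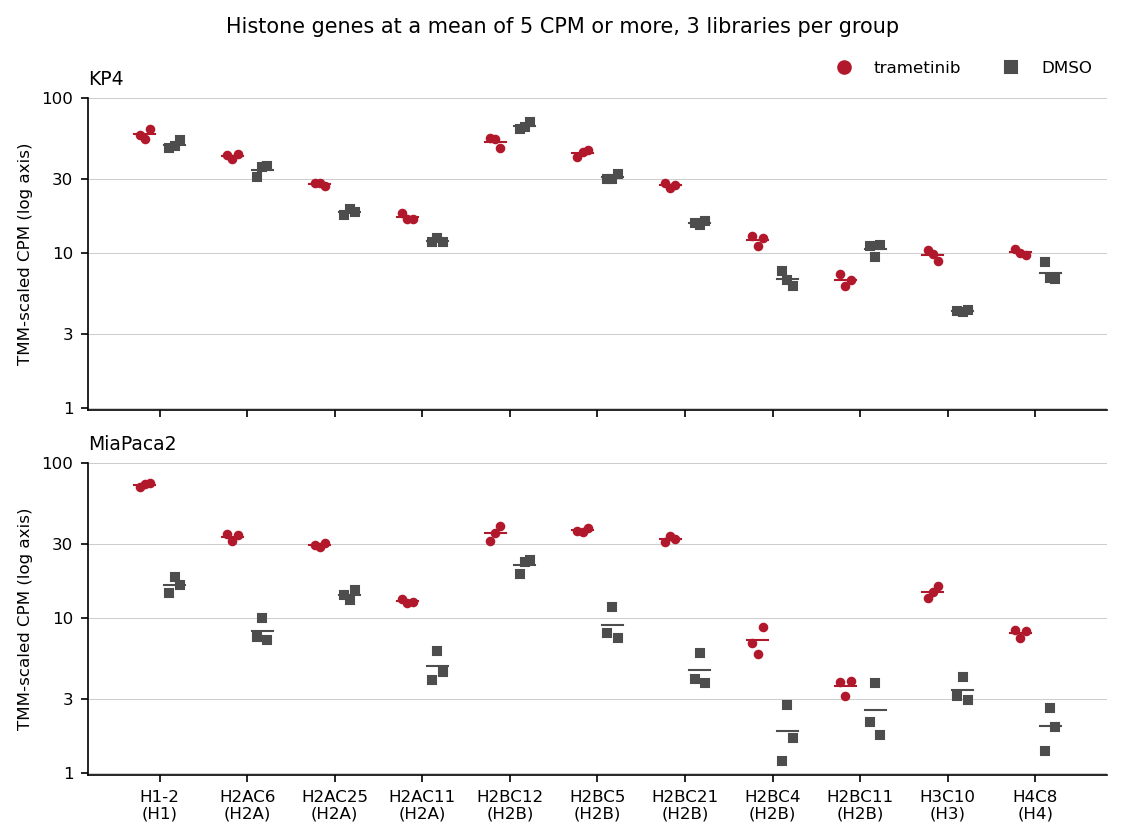
TMM-scaled CPM on a log axis of the 11 histone genes at a mean of 5 CPM or more, by class, in KP4 (upper panel) and MiaPaca2 (lower panel), with 1 point per library and a line at the mean of 3. Trametinib lies above DMSO in MiaPaca2 for every gene but H2BC11, whose groups overlap, and below DMSO in KP4 for H2BC12 and H2BC11.

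Linker histones bind the DNA where it enters and leaves the nucleosome. H1-2 (HIST1H1C, ENSG00000187837, chr6:26055787-26056428) rose in both lines, little in KP4 and strongly in MiaPaca2, and held 97% of the counts of its class. It had 57.2, 54 and 62.7 CPM in KP4 trametinib libraries, against 47.3, 48.6 and 53 CPM in KP4 DMSO libraries. It reached 69.4, 73.2 and 73.8 CPM in MiaPaca2 trametinib libraries, against 14.6, 18.3 and 16.3 CPM in MiaPaca2 DMSO libraries, a gap with no overlap. The log2 fold change was 0.22 ± 0.07 (SE), edgeR adjusted p = 0.00688, in KP4 and 2.14 ± 0.08 (SE), edgeR adjusted p = 3.19e-18, in MiaPaca2. Without KP4 trametinib replicate 3 the KP4 change was 0.16, adjusted p = 0.0748, and no longer called. The remaining tested linker genes, H1-5, H1-4 and H1-3, were under 1 CPM. H1-5 fell in MiaPaca2, with 0.447, 0.494 and 0.449 CPM with trametinib and 1.24, 0.682 and 2.22 CPM with DMSO (-1.56 ± 0.41 (SE), edgeR adjusted p = 0.00197). H1-4 fell there by 1.19 on the log2 scale, with adjusted p = 0.0188 from edgeR. H1-3, which passed the filter through 2 MiaPaca2 DMSO libraries and 1 KP4 trametinib library, had 0.122, 0.148 and 0.163 CPM in MiaPaca2 trametinib libraries, against 0.371, 0.426 and 0.753 CPM in MiaPaca2 DMSO libraries. In KP4 H1-5 and H1-4 were not called, at -0.60 ± 0.51 and -0.02 ± 0.44 (SE). H1-3 had 0.0703, 0.411 and 0 CPM in KP4 trametinib libraries, against 0.198, 0.117 and 0.0358 CPM in KP4 DMSO libraries, given with no test. The H1-4 call in MiaPaca2 was lost without DMSO replicate 2 (-1.02, adjusted p = 0.0749), DMSO replicate 3 (-1.14, adjusted p = 0.0501) or trametinib replicate 2 (-0.87, adjusted p = 0.091). Left to H1-1, H1-3, H1-4, H1-5 and H1-6, the summed H1 counts had log2 ratios of -0.18 in KP4 and -1.38 in MiaPaca2, against 0.21 and 1.93 with H1-2. H1-1 and H1-6 had 6 and 8 counts over all 12 libraries and were not tested.

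H2A pairs with H2B in the nucleosome core. Of the 10 tested H2A genes, 5 rose in KP4 and none fell, and in MiaPaca2 5 rose and 3 fell. Among all genes tested, 23.9% rose and 24.1% fell in KP4, and 34.4% rose and 29.7% fell in MiaPaca2. H2AC6 (HIST1H2AC, ENSG00000180573, chr6:26124145-26139116) had 42.8, 40.5 and 43.2 CPM in KP4 trametinib libraries, against 31, 35.9 and 36.3 CPM in KP4 DMSO libraries (0.29 ± 0.07 (SE), edgeR adjusted p = 0.00182). In MiaPaca2 the same gene had 34.6, 31.2 and 34.2 CPM with trametinib and 7.59, 10.0 and 7.27 CPM with DMSO (2.01 ± 0.10 (SE), edgeR adjusted p = 3.13e-15). Every trametinib library lay above every DMSO library in both lines. H2AC25 (HIST3H2A, ENSG00000181218, chr1:228456979-228457873), the H2A gene of the HIST3 cluster, had 28.3, 28.1 and 27 CPM in KP4 trametinib libraries, against 17.6, 19.2 and 18.4 CPM in KP4 DMSO libraries (0.59 ± 0.07 (SE), edgeR adjusted p = 1.59e-07). It had 29.6, 28.7 and 30.6 CPM in MiaPaca2 trametinib libraries, against 14.2, 13.1 and 15.2 CPM in MiaPaca2 DMSO libraries (1.07 ± 0.08 (SE), edgeR adjusted p = 6.61e-12), with no overlap in either line. H2AC11 (HIST1H2AG, ENSG00000196787, chr6:27133042-27135291) had 18.2, 16.4 and 16.6 CPM in KP4 trametinib libraries, against 11.8, 12.5 and 11.8 CPM in KP4 DMSO libraries (0.51 ± 0.10 (SE), edgeR adjusted p = 9.26e-05). Its MiaPaca2 values were 13.4, 12.5 and 12.7 CPM with trametinib and 4.0, 6.13 and 4.52 CPM with DMSO (1.40 ± 0.13 (SE), edgeR adjusted p = 5.97e-10), and it too was higher in all trametinib libraries. H2AC13, at 1.43 CPM on average, rose in both lines, by 1.03 ± 0.28 in KP4 and 1.44 ± 0.37 in MiaPaca2 (log2, SE), with edgeR adjusted p = 0.00359 and 0.00155. H2AC8 rose in KP4, with 1.51, 1.46 and 0.89 CPM with trametinib and 0.396, 0.583 and 0.322 CPM with DMSO (1.57 ± 0.35 (SE), edgeR adjusted p = 0.000635), while in MiaPaca2 its groups overlapped (0.17 ± 0.36 (SE), edgeR adjusted p = 0.704).

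The 3 H2A genes counted as lower in MiaPaca2 lie near the share of all genes and are no result about the class. H2AC20 (HIST2H2AC) had 1.46, 1.68 and 0.734 CPM in MiaPaca2 trametinib libraries, against 2.52, 2.34 and 3.32 CPM in MiaPaca2 DMSO libraries (-1.10 ± 0.26 (SE), edgeR adjusted p = 0.000693), and the groups did not overlap. In KP4 it overlapped, with 0.913, 1.08 and 0.668 CPM with trametinib and 0.792, 0.66 and 0.895 CPM with DMSO (0.18 ± 0.36 (SE), edgeR adjusted p = 0.725). H2AC16 had 0.569, 0.741 and 0.286 CPM in MiaPaca2 trametinib libraries, against 1.15, 0.937 and 0.753 CPM in MiaPaca2 DMSO libraries (-0.87 ± 0.38 (SE), edgeR adjusted p = 0.0475), a call lost under 14 of 20 other settings, with adjusted p up to 0.231. Another 2 genes of the MiaPaca2 counts passed the filter only with 1 group. H2AC14, counted as lower, had 0.122, 0 and 0.204 CPM in MiaPaca2 trametinib libraries, against 0.495, 0.511 and 0.665 CPM in MiaPaca2 DMSO libraries, at 15 counts or fewer in any library, and only its MiaPaca2 DMSO libraries reached the filter. H2AC15, counted as higher, had 0.528, 0.197 and 0.938 CPM in MiaPaca2 trametinib libraries, against 0.165, 0.17 and 0.355 CPM in MiaPaca2 DMSO libraries, groups that overlap, and needed the MiaPaca2 trametinib libraries. Its call was lost under 9 of 19 other settings, with adjusted p up to 0.352. H2AC14 shares 83.7% of its 50-base stretches with H2AC13, which rose, so reads of these genes may have been split between them by the counting. The H2A sum without H2AC6, its most abundant member, had log2 ratios of 0.57 in KP4 and 0.89 in MiaPaca2, against 0.44 and 1.25 with it.

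H2B genes held the largest rises in MiaPaca2 and the 2 falls in KP4. Of the 14 tested, 7 rose and 2 fell in KP4, and 9 rose and none fell in MiaPaca2. The shares of all genes tested were 23.9% higher and 24.1% lower in KP4, and 34.4% and 29.7% in MiaPaca2. H2BC21 (HIST2H2BE, ENSG00000184678, chr1:149884459-149886652) had 28.4, 26.3 and 27.6 CPM in KP4 trametinib libraries, against 15.6, 15.1 and 16 CPM in KP4 DMSO libraries, with no overlap. In MiaPaca2 it had 31.1, 33.8 and 32.5 CPM with trametinib and 4.04, 5.96 and 3.81 CPM with DMSO, again with no overlap. Its log2 fold change was 0.82 ± 0.09 (SE), edgeR adjusted p = 1.12e-08, in KP4 and 2.81 ± 0.11 (SE), edgeR adjusted p = 1.57e-17, in MiaPaca2, 7.02-fold on the linear scale. H2BC5 (HIST1H2BD, ENSG00000158373, chr6:26158146-26171349) had 41.8, 44.5 and 46.2 CPM in KP4 trametinib libraries, against 29.8, 30.1 and 32.2 CPM in KP4 DMSO libraries (0.52 ± 0.08 (SE), edgeR adjusted p = 4.54e-06). It had 36.4, 35.9 and 37.9 CPM in MiaPaca2 trametinib libraries, against 8.08, 11.7 and 7.4 CPM in MiaPaca2 DMSO libraries (2.02 ± 0.10 (SE), edgeR adjusted p = 4.73e-15). H2BC4 (HIST1H2BC, ENSG00000180596, chr6:26114873-26123926) had 12.8, 11.1 and 12.5 CPM in KP4 trametinib libraries, against 7.68, 6.72 and 6.12 CPM in KP4 DMSO libraries (0.83 ± 0.14 (SE), edgeR adjusted p = 1.97e-05). MiaPaca2 values of H2BC4 were 6.9, 5.88 and 8.81 CPM with trametinib and 1.2, 2.77 and 1.68 CPM with DMSO (1.95 ± 0.22 (SE), edgeR adjusted p = 2.21e-08). In all of these the lowest trametinib library was above the highest DMSO library.

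The other H2B genes above 5 CPM, both in HIST1, were lower with trametinib in KP4. H2BC12 (HIST1H2BK, ENSG00000197903, chr6:27146418-27146798) had 54.6, 54.4 and 47.5 CPM in KP4 trametinib libraries, against 63.2, 64.6 and 69.4 CPM in KP4 DMSO libraries, lower in every trametinib library (-0.34 ± 0.07 (SE), edgeR adjusted p = 0.000386). In MiaPaca2 it was higher in every trametinib library, with 31.6, 35.2 and 38.9 CPM with trametinib and 19.1, 23 and 23.5 CPM with DMSO (0.69 ± 0.09 (SE), edgeR adjusted p = 3.44e-07). H2BC11 (HIST1H2BJ, ENSG00000124635, chr6:27125897-27132750) had 7.27, 6.17 and 6.71 CPM in KP4 trametinib libraries, against 11.1, 9.4 and 11.2 CPM in KP4 DMSO libraries, with no overlap (-0.65 ± 0.14 (SE), edgeR adjusted p = 0.000293). Its MiaPaca2 groups overlapped, with 3.9, 3.16 and 3.96 CPM with trametinib and 2.14, 3.83 and 1.77 CPM with DMSO (0.51 ± 0.23 (SE), edgeR adjusted p = 0.0508). H2BC12 shares 74.1% of its 50-base stretches with H2BFS, so its counts may hold reads of that gene or lack some of its own. The H2B sum without H2BC12 had log2 ratios of 0.52 in KP4 and 1.89 in MiaPaca2, against 0.18 and 1.46 with it.

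Another 6 H2B genes averaged 1 to 5 CPM. H2BC26, the H2B gene of HIST3, had 2.14, 3.25 and 1.74 CPM in KP4 trametinib libraries, against 1.39, 0.855 and 0.465 CPM in KP4 DMSO libraries (1.41 ± 0.32 (SE), edgeR adjusted p = 0.000699). It showed the largest rise of all members in MiaPaca2, with 5.04, 4.3 and 6.4 CPM with trametinib and 0.619, 0.639 and 0.842 CPM with DMSO (2.92 ± 0.30 (SE), edgeR adjusted p = 4.57e-09). H2BC8 rose in KP4 with 2.42, 2.99 and 2.97 CPM with trametinib and 1.27, 1.67 and 1.0 CPM with DMSO (1.09 ± 0.22 (SE), edgeR adjusted p = 0.000213) and was not called in MiaPaca2 (0.62 ± 0.33, adjusted p = 0.108 from edgeR). H2BC6, H2BC15, H2BC9 and H2BC7 rose in MiaPaca2 by 1.44 ± 0.25, 1.12 ± 0.29, 1.58 ± 0.47 and 0.87 ± 0.30 (log2, SE). In KP4 H2BC6 had 0.46 ± 0.19 (SE), edgeR adjusted p = 0.0469, a call lost under 12 of 21 other settings, among them leaving out any KP4 library but DMSO replicate 3, with adjusted p up to 0.232. H2BC15, H2BC9 and H2BC7 were not called in KP4, at 0.11 ± 0.20, 0.40 ± 0.32 and 0.64 ± 0.28. The MiaPaca2 call of H2BC9 was lost without trametinib replicate 1 (1.21, adjusted p = 0.0582), and that of H2BC7 without trametinib replicate 1 (0.67, adjusted p = 0.0957) or DMSO replicate 1 (0.67, adjusted p = 0.0776). H2BC15 overlaps H2AC15 on the opposite strand and H2AC16 on its own, and H2BC6 has an antisense neighbour. The use of strand in the counting is not given, so their reads cannot be told apart.

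H3 and H4 form the tetramer at the centre of the nucleosome. Of 8 tested H3 genes, 4 rose and none fell in KP4, and 3 rose and 1 fell in MiaPaca2. Among all genes tested, 23.9% rose and 24.1% fell in KP4, and 34.4% rose and 29.7% fell in MiaPaca2. The count of H3 rises in MiaPaca2 lies near that share and is no result about the class. H3C10 (HIST1H3H, ENSG00000278828, chr6:27810064-27811300) held 56.9% of H3 counts. It had 10.4, 9.86 and 8.86 CPM in KP4 trametinib libraries, against 4.24, 4.16 and 4.3 CPM in KP4 DMSO libraries (1.20 ± 0.13 (SE), edgeR adjusted p = 3.25e-08). It had 13.5, 14.7 and 16 CPM in MiaPaca2 trametinib libraries, against 3.13, 4.17 and 2.97 CPM in MiaPaca2 DMSO libraries (2.10 ± 0.14 (SE), edgeR adjusted p = 4.54e-13), and trametinib and DMSO libraries were apart in both lines. HIST1H3B rose by 1.08 ± 0.25 in KP4 and 1.48 ± 0.29 in MiaPaca2 (log2, SE), with edgeR adjusted p = 0.000999 and 8.45e-05. H3C6 rose in MiaPaca2, with 2.11, 2.22 and 2.24 CPM with trametinib and 0.289, 0.767 and 0.399 CPM with DMSO (2.17 ± 0.36 (SE), edgeR adjusted p = 9.66e-06). In KP4 H3C6 had 2.6, 2.06 and 1.34 CPM with trametinib and 1.15, 0.738 and 1.36 CPM with DMSO, groups that overlap (0.88 ± 0.28 (SE), edgeR adjusted p = 0.0124), and the call was lost without DMSO replicate 2 (0.67, adjusted p = 0.0842) or trametinib replicate 1 (0.66, adjusted p = 0.101). H3C8 was not called in either line (0.43 ± 0.22 in KP4, 0.86 ± 0.44 in MiaPaca2). H3C12, at 0.284 CPM on average, had 1.81 ± 0.72 (SE), edgeR adjusted p = 0.0387, in KP4. Leaving out KP4 DMSO replicate 1, 2 or 3, or KP4 trametinib replicate 2 or 3, ended the KP4 call, with log2 fold changes of 1.33 to 2.16 and adjusted p of 0.0587 to 0.214. In MiaPaca2 H3C12 had 0.366, 0.0987 and 0.204 CPM in MiaPaca2 trametinib libraries, against 0.495, 0.511 and 0.665 CPM in MiaPaca2 DMSO libraries, and it passed the filter only with these DMSO libraries. H3C12 overlaps H2AC17 on the same strand.

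Among 5 tested H4 genes, 1 rose in KP4 and 3 in MiaPaca2, and none fell. The shares of all genes tested were 23.9% higher and 24.1% lower in KP4, and 34.4% and 29.7% in MiaPaca2. The count of H4 rises in KP4 lies near that share and is no result about the class. H4C8 (HIST1H4H, ENSG00000158406, chr6:26277609-26285638) had 10.7, 9.98 and 9.64 CPM in KP4 trametinib libraries, against 8.75, 6.92 and 6.77 CPM in KP4 DMSO libraries (0.44 ± 0.12 (SE), edgeR adjusted p = 0.00489). It had 8.37, 7.46 and 8.28 CPM in MiaPaca2 trametinib libraries, against 1.4, 2.64 and 1.99 CPM in MiaPaca2 DMSO libraries (2.00 ± 0.19 (SE), edgeR adjusted p = 5.42e-10), without overlap in either line. H4C16, the HIST4 gene, had 1.46, 2.22 and 2.24 CPM in MiaPaca2 trametinib libraries, against 1.2, 1.28 and 1.06 CPM in MiaPaca2 DMSO libraries (0.73 ± 0.27 (SE), edgeR adjusted p = 0.0208), and 0.35 ± 0.23 in KP4, not called. Its MiaPaca2 call was lost without DMSO replicate 3 (0.66, adjusted p = 0.0645), trametinib replicate 2 (0.65, adjusted p = 0.0659) or trametinib replicate 3 (0.61, adjusted p = 0.0923). H4C9 rose in MiaPaca2 (1.39 ± 0.44 (SE), edgeR adjusted p = 0.00737), a call lost without DMSO replicate 1 (0.88, adjusted p = 0.0666) or trametinib replicate 1 (1.16, adjusted p = 0.0512). In KP4 H4C9 was at -0.13 ± 0.30, not called. Without H4C8 the H4 sum had log2 ratios of 0.26 in KP4 and 0.10 in MiaPaca2, against 0.37 and 0.98 with it.

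**Figure D3:**
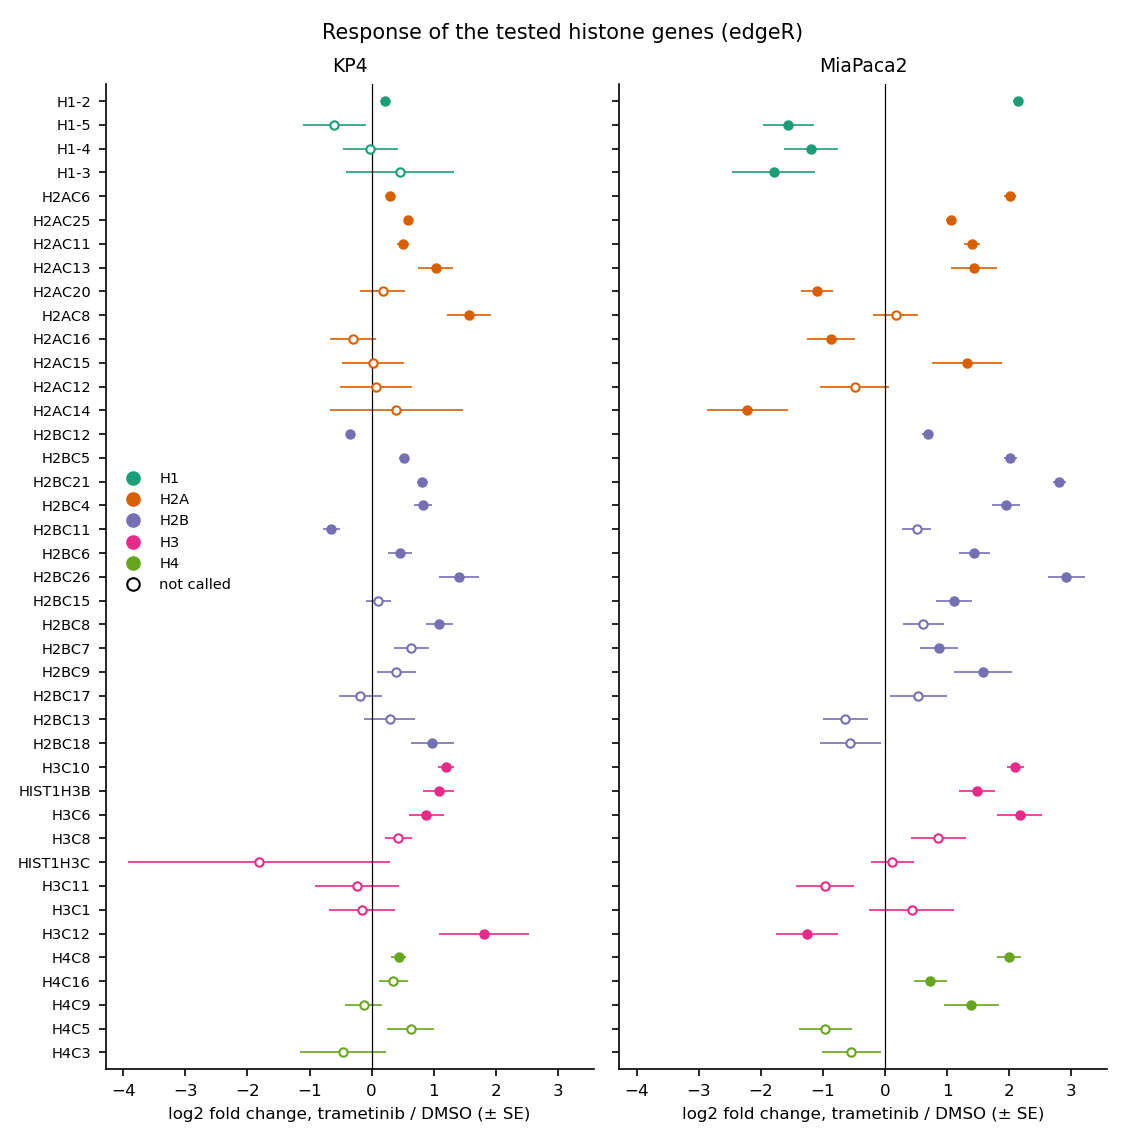
Log2 fold change (trametinib over DMSO) with its SE from edgeR for the 41 tested histone genes, by class and within a class from high to low mean CPM, in KP4 (left) and MiaPaca2 (right). Filled points passed an adjusted p of 0.05: 18 higher and 2 lower in KP4, 21 higher and 7 lower in MiaPaca2.

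Per kilobase of annotated exon, the order of levels differed from that of counts. In KP4 trametinib libraries H2BC12 stood first at 137 CPM per kilobase and H1-2 next at 90.3, followed by H2BC5 at 50.7, H2AC25 at 31.1 and H2AC6 at 25.3. In KP4 DMSO libraries the same measure was 173 for H2BC12, 77.4 for H1-2, 35.3 for H2BC5, and 20.6 for both H2AC25 and H2AC6. In MiaPaca2 trametinib libraries H1-2 stood first at 112 CPM per kilobase and H2BC12 at 92.5, while with DMSO they were at 25.5 and 57.5. H1-2 and H2BC12 have only their coding part annotated, 642 and 381 bases, so their values per kilobase are set over a shorter length than those of the other 3.

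By cluster, HIST1 genes summed to 283 ± 3.84 CPM in KP4 trametinib and 244 ± 9.59 in KP4 DMSO libraries, and to 251 ± 8.85 and 91.4 ± 13.2 CPM in MiaPaca2 (SD). Of 35 tested HIST1 genes, 14 rose and 2 fell in KP4, and 17 rose and 6 fell in MiaPaca2. All 7 members that passed the filter only with 1 group are HIST1 genes. H1-3, H2AC14 and H3C12 are among the MiaPaca2 falls and H2AC15 is among the MiaPaca2 rises, so their part of the MiaPaca2 counts carries no test. Among all genes tested, 23.9% rose and 24.1% fell in KP4, and 34.4% rose and 29.7% fell in MiaPaca2. HIST2 summed to 29.9 ± 0.473 CPM in KP4 trametinib and 17.1 ± 0.697 in KP4 DMSO libraries, and to 34.5 ± 1.69 and 8.23 ± 0.873 CPM in MiaPaca2. H2BC21 gave 89.4% of HIST2 counts, and without it the MiaPaca2 log2 ratio of HIST2 was -0.81, against 2.07 with it, H2AC20 being the next at 6.11%. In KP4 the HIST2 ratio was 0.60 without H2BC21 and 0.80 with it. HIST3 summed to 30.2 ± 1.33 CPM in KP4 trametinib and 19.3 ± 0.632 in KP4 DMSO libraries, and to 34.8 ± 2.00 and 14.8 ± 1.12 CPM in MiaPaca2, with H2AC25 at 90.9% of its counts. H3-4, the remaining HIST3 gene and known for its expression in testis, was at 0 in every library.

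By the outer ends of the GENCODE genes, starts that face away from each other within 1000 bases, on opposite strands, formed 12 pairs of members. Both partners were tested in 8. In KP4 both partners were called the same way in 3 of the 8 pairs and opposite ways in 1, and in MiaPaca2 in 2 and 1. Among all genes tested, 48.1% were called in KP4 and 64% in MiaPaca2, and whether partners moved together was not tested. The pair H3C12 and H2BC17 is among the 8, and H3C12 passed the filter only with the MiaPaca2 DMSO libraries. H2BC17 is also paired with H2AC17, which was not tested. Not among the 12 are H2BC15 and H2AC15, because their GENCODE genes overlap, though their RefSeq windows place their starts facing away from each other. Both were counted as higher in MiaPaca2 and neither was called in KP4. H2AC15 passed the filter only with the MiaPaca2 trametinib libraries. H2BC4 and H2AC6, with 219 bases between their starts, rose together in both lines, as did H2AC25 and H2BC26, 234 bases apart. H2BC8 and H2AC8, 283 bases apart, rose together in KP4, and in MiaPaca2 neither was called. The difference between lines was called for H2AC8 (1.40 ± 0.52 (SE), edgeR adjusted p = 0.0372), though not without any of 8 of the 12 libraries left out in turn (adjusted p up to 0.105), and not for H2BC8 (0.47 ± 0.41 (SE), edgeR adjusted p = 0.404). H2BC11 and H2AC11, 292 bases apart, went opposite ways in KP4, -0.65 ± 0.14 and 0.51 ± 0.10. H2BC21 and H2AC20, 323 bases apart over the promoter printed above, went opposite ways in MiaPaca2, 2.81 ± 0.11 and -1.10 ± 0.26. H2AC20 has only its coding part annotated, while the H2BC21 model runs past the stem-loop. It also shares 30.5% of its 50-base stretches with other genes, HIST2H2AA3 and HIST2H2AA4 among them. The counts of H2AC20 may therefore hold reads of those genes or lack some of its own. The part of this in the opposite directions was not tested. H2BC12 was called in both lines while its partner H2AC12, at 0.329 CPM on average, was not (0.07 ± 0.58 in KP4 and -0.49 ± 0.56 in MiaPaca2, log2, SE).

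Members were also described by their transcript model. In 22 members a GENCODE 29 transcript that holds the stem-loop runs at least 100 bases past it, in 9 the transcript ends by it, and in 40 no model holds one, 33 of these being annotated by their coding part alone. Of the 18 tested members whose model runs past the stem-loop, 11 rose and none fell in KP4, where 23.9% of all genes tested rose and 24.1% fell, with a median log2 fold change of 0.61. In MiaPaca2 14 rose and none fell, where 34.4% of all genes rose and 29.7% fell, with a median of 1.42. Of the 19 tested with no stem-loop in the models, 4 rose and 2 fell in KP4 and 5 rose and 7 fell in MiaPaca2. These 19 hold all 7 members that passed the filter only with 1 group, and without them 3 of 12 rose and 2 fell in KP4 and 4 rose and 4 fell in MiaPaca2. Such counts lie near the shares of all genes and are no result about these members. The 4 tested members whose model ends by the stem-loop had medians of 0.78 and 0.80. H2BC5 is among these by its transcripts that hold the stem-loop, while the gene is annotated to chr6:26171349, far past that site. Level went with the model as well. The median member averaged 1.48 CPM where the model runs past the stem-loop and 0.227 CPM where there is none, and a count by these models would leave out reads past an annotated end. Among members at 1 CPM or more, 14 of 16 whose model runs past the stem-loop rose in MiaPaca2 with none lower, and 4 of 6 without a stem-loop rose, with H2AC20 lower. The part that level and annotation have in these counts was not tested. A poly(A) signal was found in the last 60 bases of 15 of the 22 longer models, H2BC21, H2AC25, H2AC6, H3C10 and H4C8 among them, and in 4 of the 9 that end by the stem-loop.

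**Figure D4:**
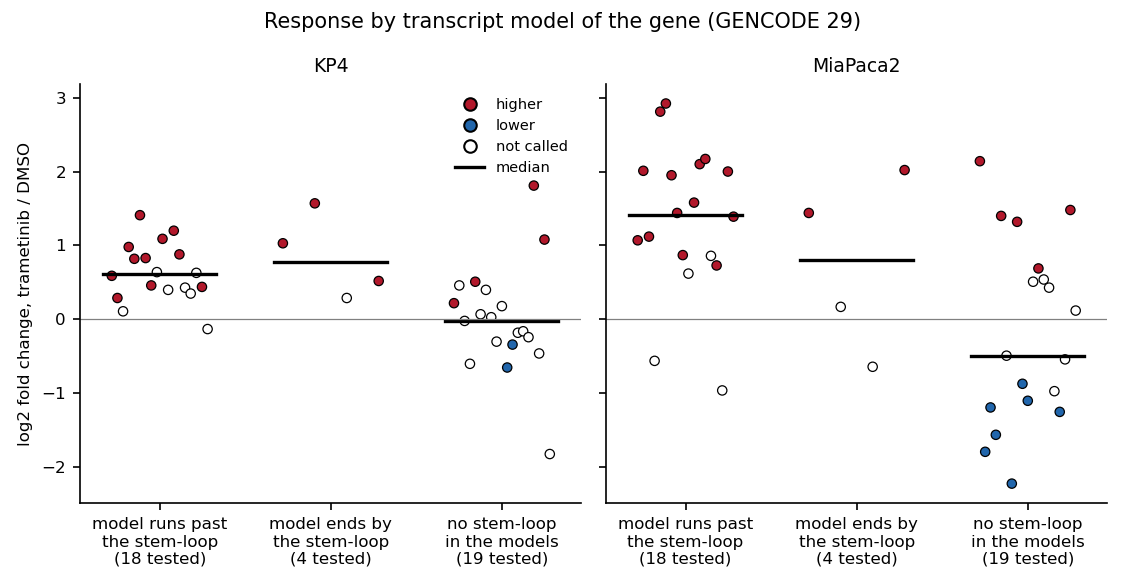
Log2 fold change (trametinib over DMSO) of the 41 tested histone genes in KP4 (left) and MiaPaca2 (right), grouped by whether a GENCODE 29 transcript runs past the stem-loop, ends by it or holds none, with the median as a line. The 18 genes with a longer model have medians of 0.61 in KP4 and 1.42 in MiaPaca2, and the 7 genes called lower in MiaPaca2 lie in the group without a stem-loop, 3 of them genes that passed the filter only with 1 group.

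The response differed between the lines for 21 of the 41 tested members, where 35.7% of all genes tested differed. It was lower in KP4 than in MiaPaca2 for 16 members, against 19.7% of all genes, and higher for 5, against 16% of all genes. The median difference of the log2 fold changes (KP4 minus MiaPaca2) was -0.47, against -0.05 over all genes. Without the 7 members that passed the filter only with 1 group it was -0.8, with 16 lower and 4 higher in KP4. All 11 members at 5 CPM or more differed, each with the lower value in KP4. H2BC21 had the largest gap among them at -1.99 ± 0.15 (SE), edgeR adjusted p = 6.12e-11, with H1-2 at -1.92 ± 0.10 (SE), edgeR adjusted p = 1.39e-13, and H2AC6 at -1.72 ± 0.13 (SE), edgeR adjusted p = 6.96e-11. H2AC25 had the smallest at -0.47 ± 0.11 (SE), edgeR adjusted p = 0.0011. H2BC12 rose in MiaPaca2 and fell in KP4, a difference of -1.02 ± 0.12 (SE), edgeR adjusted p = 1.47e-07. The 5 that differed the other way were low: H2AC20, H2AC8, H2BC18, H4C5 and H3C12 averaged 0.284 to 1.42 CPM. H3C12 is among them through a filter that it passed only with the MiaPaca2 DMSO libraries. Leaving out 1 library at a time ended the calls of H2AC20, H2AC8, H2BC18 and H4C5 in at least 5 cases each, with adjusted p from edgeR up to 0.097, 0.105, 0.137 and 0.124. Of the 20 calls other than that of H3C12, only the 11 of members at 5 CPM or more held under every other setting that gave a value.

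With DMSO alone the lines differed as well; this comparison shares its libraries with both responses above. In KP4 DMSO libraries 18 members were higher and 9 lower than in MiaPaca2 DMSO libraries, where 63.2% of all genes tested were called, 32% higher and 31.2% lower, and the median log2 difference was 0.42, against 0.02 over all genes. That median was 0.8 without the 7 members that passed the filter only with 1 group. Of the 11 members at 5 CPM or more, 10 were higher in KP4. H2AC6 had 31, 35.9 and 36.3 CPM in KP4 DMSO libraries, against 7.59, 10.0 and 7.27 CPM in MiaPaca2 DMSO libraries (2.05 ± 0.10 (SE), edgeR adjusted p = 1.97e-15). H2BC11 differed by 2.03 ± 0.18 (SE), edgeR adjusted p = 1.89e-10, H4C8 by 1.89 ± 0.18 (SE), edgeR adjusted p = 1.65e-09, and H2BC4 by 1.86 ± 0.22 (SE), edgeR adjusted p = 4.81e-08. H3C8 had 1.74, 1.17 and 1.54 CPM in KP4 DMSO libraries, against 0.412, 0.256 and 0.443 CPM in MiaPaca2 DMSO libraries (1.99 ± 0.35 (SE), edgeR adjusted p = 2.18e-05). H3C10 was the exception among the 11, with 4.24, 4.16 and 4.3 CPM in KP4 DMSO libraries, against 3.13, 4.17 and 2.97 CPM in MiaPaca2 DMSO libraries (0.30 ± 0.17 (SE), edgeR adjusted p = 0.131). Of the 9 lower in KP4, H2AC14, H3C12, H3C11, H1-3 and H4C3 would not have passed the filter without the MiaPaca2 DMSO libraries, which leaves 4. Among these 4, HIST1H3C reached the filter in MiaPaca2 libraries alone, so its difference too is given as values with no test. H2AC20 differed by -1.78 ± 0.28 (SE), edgeR adjusted p = 4.83e-06. H2AC14 had 0, 0.155 and 0.0358 CPM in KP4 DMSO libraries, against 0.495, 0.511 and 0.665 CPM in MiaPaca2 DMSO libraries, and H3C12 0.0792, 0.0388 and 0.107 CPM in KP4 DMSO libraries, against 0.495, 0.511 and 0.665 CPM in MiaPaca2 DMSO libraries. HIST1H3C, whose libraries reached the filter in MiaPaca2 alone, stood at or near 0 in KP4, with 0, 0.0388 and 0 CPM in KP4 DMSO libraries, against 1.07, 0.596 and 1.20 CPM in MiaPaca2 DMSO libraries. That is 1 count in KP4 and 67 in MiaPaca2, a ratio of 0.0133 with an exact 95% counting interval of 0.000332 to 0.0766. The interval covers counting error only, not the spread between libraries, and is no test. It had 0 counts in the KP4 trametinib libraries, against 0.772, 1.14 and 1.22 CPM in MiaPaca2 trametinib libraries.

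The other 30 members were not tested. Of these, 13 had 0 counts in all 12 libraries, 8 of which share at least 95% of their 50-base stretches with another gene and 5 under 5%. HIST2 held 6 of the 13, the paired copies HIST2H2AA3 and HIST2H2AA4, H3C14 and H3C15 among them, so its counts cannot say whether those copies were expressed. The other 17 had 3 to 91 counts over all libraries. They summed to 139 counts in KP4 trametinib libraries (exact Poisson 95% interval 116.9 to 164.1) and 109 in KP4 DMSO libraries (89.5 to 131.5), and to 141 in MiaPaca2 trametinib libraries (118.7 to 166.3) and 205 in MiaPaca2 DMSO libraries (177.9 to 235.1). These intervals cover counting error only.

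Genes that make, process and use histone mRNA mostly fell with trametinib. Of 27 factors of histone mRNA, 1 rose and 15 fell in KP4, and 3 rose and 19 fell in MiaPaca2, with median log2 fold changes of -0.21 and -0.35. Among all genes tested, 23.9% rose and 24.1% fell in KP4, and 34.4% rose and 29.7% fell in MiaPaca2. NPAT averaged 32.0 ± 1.84 CPM in KP4 trametinib and 36.9 ± 1.11 in KP4 DMSO libraries, and 28.1 ± 0.821 and 36.6 ± 3.29 CPM in MiaPaca2 (SD), with log2 fold changes of -0.21 ± 0.07 and -0.38 ± 0.07 (SE). CASP8AP2, another part of histone locus bodies, fell in KP4 (-0.23 ± 0.06) and was not called in MiaPaca2 (-0.09 ± 0.06, edgeR adjusted p = 0.202). CCNE2, a cyclin E, fell by 0.71 in KP4 and 0.45 in MiaPaca2 on the log2 scale, and the transcription factor HINFP was at 0.03 ± 0.08 in KP4, not called, and 0.23 ± 0.10 in MiaPaca2. Of the 11 genes of stem-loop cutting, 7 fell in KP4 and 10 in MiaPaca2, and none rose. SLBP averaged 78.5 ± 2.70 CPM in KP4 trametinib and 81.3 ± 3.37 in KP4 DMSO libraries, not called (edgeR adjusted p = 0.482), and 75.9 ± 1.90 and 91.3 ± 7.19 CPM in MiaPaca2 (adjusted p = 0.000183). LSM11 fell by 0.64 in KP4 and 0.33 in MiaPaca2, ZNF473 by 0.56 and 0.79, and CPSF3 by 0.22 and 0.65. Among genes of translation and decay, ERI1, a nuclease that trims the histone mRNA end, fell by 0.67 and 0.87. CTIF, which takes part in cap-dependent translation, rose in both lines (0.81 ± 0.05 and 1.12 ± 0.06), and the exonuclease XRN1 rose in MiaPaca2 (0.84 ± 0.06).

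Replication-independent histones, most of which carry ordinary poly(A) tails, fell more often than they rose. Of 11 tested, 1 rose and 7 fell in KP4 and 2 rose and 6 fell in MiaPaca2. The shares of all genes tested, for this and the next 2 lists, were 23.9% higher and 24.1% lower in KP4. They were 34.4% and 29.7% in MiaPaca2. H2AZ1 fell by 0.39 and 0.87 on the log2 scale, MACROH2A1 by 0.38 and 0.59, and H2AX, whose mRNA can end either way, by 0.41 and 0.47. CENPA, the centromeric H3, fell by 0.21 and 0.66. H2AJ rose by 0.30 ± 0.05 and 0.13 ± 0.05. The median log2 fold change of the list was -0.21 in KP4 and -0.15 in MiaPaca2. Of 21 histone chaperones and importers, 2 rose and 13 fell in KP4, and 3 rose and 13 fell in MiaPaca2, with medians of -0.23 and -0.33. SSRP1, a subunit of FACT, fell by 0.57 and 0.83, CHAF1A of the chromatin assembly factor CAF-1 by 0.60 and 0.78, HJURP, which deposits CENPA, by 0.41 and 0.88, and TONSL by 0.18 and 1.10. ATRX (0.18 ± 0.05 and 0.21 ± 0.05) and CABIN1 (0.20 ± 0.04 and 0.28 ± 0.04) rose in both lines, UBN2 (0.35 ± 0.08) in MiaPaca2, and IPO4, at under 1 CPM, fell by 1.28 in KP4. Of 28 genes of DNA replication, 27 fell and none rose in each line (POLA2, a subunit of DNA polymerase alpha, was not called), with medians of -0.44 in KP4 and -0.92 in MiaPaca2. MCM4 fell by 0.32 and 1.29, MCM3 by 0.62 and 0.94, MCM7 by 0.61 and 1.06, PRIM1 by 0.65 and 1.24 and GINS2 by 0.50 and 1.26.

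**Figure D5:**
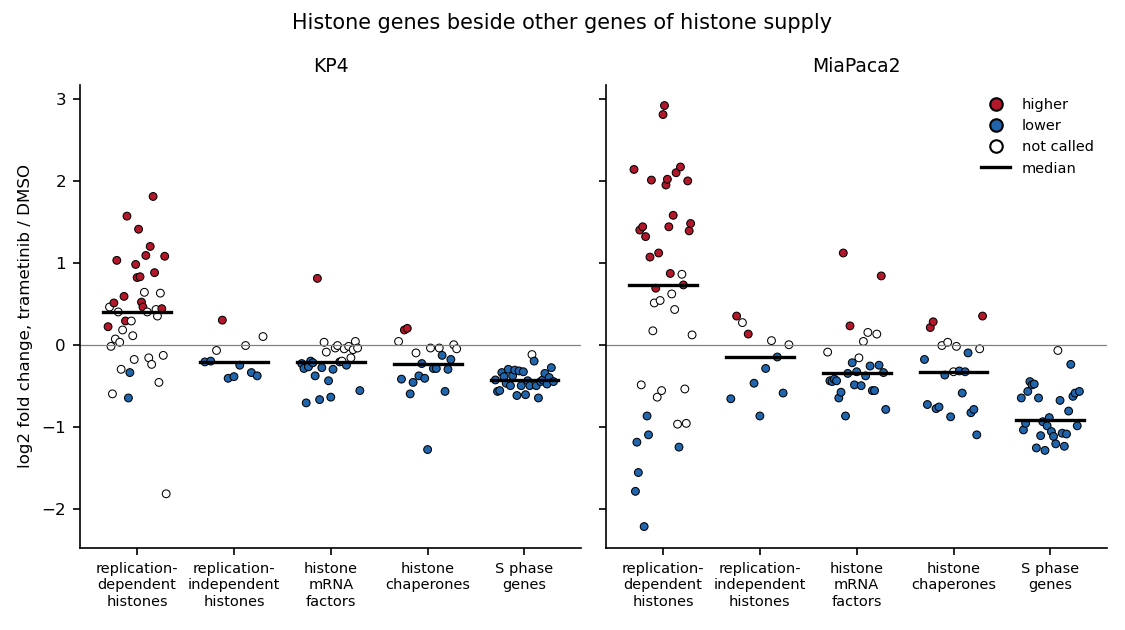
Log2 fold change (trametinib over DMSO) of tested genes in KP4 (left) and MiaPaca2 (right) for the replication-dependent histones and 4 lists of genes that share their supply chain, with the median of each as a line. In MiaPaca2 the histone median is 0.73 and that of the S phase genes -0.92. Without the 7 histone genes that passed the filter only with 1 group it would be 0.97.

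RNAs without a poly(A) tail were checked as a sign of how strictly tails were selected. Of 25 such RNAs, 10 were at 0 in all 12 libraries, and the list summed to 5.73 to 9.53 CPM in KP4 trametinib and 4.99 to 5.76 in KP4 DMSO libraries, and to 4.31 to 6.45 in MiaPaca2 trametinib and 3.9 to 6.43 in MiaPaca2 DMSO libraries. The ranges of trametinib and DMSO libraries overlap in both lines. SNORD3A averaged 0.555 CPM in MiaPaca2 trametinib and 0.0702 CPM in MiaPaca2 DMSO libraries. It passed the filter of 0.402 CPM only with the MiaPaca2 trametinib libraries, so this difference is given with no test. In KP4 no RNA of the list was called by edgeR out of 2 tested, with SNORD3A at a log2 fold change of 1.9. RN7SL2, the other RNA tested, was at 0.41 ± 0.22 in KP4 and -0.21 ± 0.28 in MiaPaca2, not called. The part of untailed RNA in the histone counts was not tested beyond these values.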

How the data were processed

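RNA of 12 libraries was prepared with a poly(A)-selecting mRNA kit, per the labels' protocols, and the authors deposited 1 table of raw counts per gene. STAR, DESeq2 and GRCh38 (hg38) are named in the submitters' processing notes, with no role or version. On the counting program, its annotation, its use of strand and its treatment of multiply matching reads, nothing is stated in those notes or the labels. Gene names and models came from GENCODE 29, which holds all 58735 identifiers, and promoters from RefSeq GRCh38.p14. The members and lists were chosen with earlier results of these data known.

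Counts were scaled by TMM in edgeR 4.0.16 (R 4.3.3), and filterByExpr kept 16133 of 31413 genes with a count. One mean per group was fitted over all 12 libraries with the robust quasi-likelihood test, and p-values were Benjamini-Hochberg adjusted over all genes tested (threshold 0.05); the SE is the log2 fold change over the root of F. The comparisons were trametinib minus DMSO in each line, the difference of these, and KP4 DMSO minus MiaPaca2 DMSO. Named were members at a mean of 1 CPM or more, with each library at 5 or more, the 5 most extreme called members each way per comparison, the 3 most extreme called genes each way per list, and NPAT, SLBP, LSM11 and CASP8AP2. A few other values of genes so named in 1 line are given for the other line, and POLA2, RN7SL2, H2AC15, H2AC16, H3C4, the genes named for the filter and the epithelial genes named were chosen after their values were seen. Total counts were 20293688 to 28018129 per library. No library pair agreed within sampling noise. Other scalings, filters, DESeq2 1.42.0, limma-voom (limma 3.58.1) and leaving out each library were tried. The test was checked on simulated counts, for the KP4 comparison alone and with a spread common to all genes. Changes were placed only in genes of higher counts. The check therefore does not cover changes at low counts or the wider spread of the MiaPaca2 DMSO libraries. The values of 2 genes of these lists are not reported here.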

Additional observations from a re-analysis of the deposited data

Results flagged for a closer look

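The response to trametinib differed between the lines, by the interaction term of the edgeR fit at an adjusted p under 0.05, for 21 members. The difference of the log2 fold changes, KP4 minus MiaPaca2, was -1.99 for H2BC21, -1.92 for H1-2, -1.72 for H2AC6, -1.57 for H4C8, -1.50 for H2BC5, -1.17 for H2BC11, -1.12 for H2BC4, -1.02 for H2BC12, -0.90 for H3C10, -0.89 for H2AC11 and -0.47 for H2AC25 among the members at 5 CPM or more. Among members at 1 to 5 CPM with a lower response in KP4 it was -1.51 for H4C9, -1.50 for H2BC26, -1.29 for H3C6, -1.01 for H2BC15 and -0.98 for H2BC6. It was positive, with the higher response in KP4, at 3.06 for H3C12, 1.59 for H4C5, 1.54 for H2BC18, 1.40 for H2AC8 and 1.27 for H2AC20. H3C12 passed the filter on low counts only with the MiaPaca2 DMSO libraries, where it was high, so its difference is no test.
Leaving out 1 library at a time ended some of these calls: H2BC26 without KP4 DMSO replicate 1 (adjusted p = 0.169 from edgeR), H2BC6 without KP4 DMSO replicate 3 or MiaPaca2 DMSO replicate 1 (up to 0.0743), and H3C6, H4C9 and H2BC15 without any of 9, 7 and 5 libraries (up to 0.139, 0.122 and 0.0968).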

How the results depend on the processing

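Of the 96 calls of members over the 4 comparisons, 65 held under every alternative that gave a value. A filter at a mean of 1 CPM, which leaves fewer members to test, gave 1 member lower in MiaPaca2, 1 with the higher response in KP4 and 1 lower in KP4 DMSO than in MiaPaca2 DMSO libraries, and DESeq2 gave 4 lower in MiaPaca2. Leaving out 1 library at a time gave 1 to 4 members with the higher response in KP4. Low counts limit the members under 1 CPM.

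Sums rest on their most abundant member. Without it, log2 ratios in KP4 and MiaPaca2 were -0.18 and -1.38 for H1, 0.57 and 0.89 for H2A, 0.52 and 1.89 for H2B, 0.72 and 0.85 for H3, 0.26 and 0.10 for H4, 0.60 and -0.81 for HIST2 and 1.40 and 2.91 for HIST3.

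Signs turned only for uncalled values. H2BC18 between DMSO lines was at -0.01 with RLE scaling and DESeq2 and -0.0 with only the libraries compared. In KP4 H1-4 was at 0.01 with DESeq2 and 0.06 with limma-voom, and H1-3 at -0.38 with limma-voom. With 1 library left out the ranges were -0.25 to 0.21 for H2BC18, -0.09 to 0.68 for H2BC26 and -0.16 to 0.28 for H2BC7 between DMSO lines. In KP4 they were -1.54 to 1.04 for H1-3, -0.30 to 0.31 for H1-4, -0.20 to 1.92 for H2AC14, -0.31 to 0.02 for H4C9 and -2.29 to 0.0 for HIST1H3C. In MiaPaca2 they were -0.03 to 0.32 for H2AC8 and -0.13 to 0.31 for HIST1H3C, and for the difference of responses -0.72 to 0.07 for H2AC13 and -0.43 to 0.07 for H2BC7. The cause was not tested.

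Same-numbered libraries did not deviate together (r from -0.0148 to 0.0213), so the numbers are not taken as pairs. With the replicate number as a block, 17 members were higher and 2 lower in KP4, 21 and 7 in MiaPaca2, 4 and 16 in the difference of responses, and 18 and 9 between DMSO lines.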
